A study of Mus musculus with 34 samples.

Results

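The genes described here are the 3 secretoglobins that mark club cells, Scgb1a1, Scgb3a1 and Scgb3a2. They were found by gene symbol in a table of 24223 rows that covers brushed tracheal epithelium of 28 Gprc5a-/- mice, and all 3 passed the filter on low counts that left 14847 genes to test. Gprc5a encodes an orphan receptor of the lung epithelium whose loss predisposes mice to lung adenocarcinoma, and every mouse in these 28 libraries carries the deletion. The mice were 6 to 8 weeks old at the start and received the tobacco nitrosamine NNK for 8 weeks, in 3 intraperitoneal injections of 50 mg/kg each week. The groups are baseline, before any exposure (6 mice), t0, at the end of the exposure (6 mice), and t2, t4 and t6, which stand for 2, 4 and 6 months after it (5, 6 and 5 mice). A further 6 unexposed wild-type mice of the same age were processed separately. No unexposed knockout mice of the later ages are among the samples, so exposure, the time since exposure and age cannot be told apart.

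Club cells are the secretory cells of the mouse airway surface. They make secretoglobins, small secreted proteins that form dimers, together with enzymes that oxidise inhaled chemicals, NNK among them, and they can divide and give rise to ciliated cells. Scgb1a1, also called uteroglobin or CC10, is the classic product of these cells and binds lipids and restrains inflammation. Scgb3a1 (also UGRP2 or HIN-1) and Scgb3a2 (also UGRP1) are related products of the same airway cells, and Scgb3a2 is a known target of the transcription factor NKX2-1 and a ligand of the macrophage receptor MARCO.

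Of the 3 genes only Scgb3a1 had an entry in the RefSeq promoter table used here, and the 250 bases before its start are shown because binding letters of 2 factors of airway secretory cells lie in them. The window is chr11:49663345-49663594, plus strand, build GRCm38.p6, with the matches in capitals.
Scgb3a1: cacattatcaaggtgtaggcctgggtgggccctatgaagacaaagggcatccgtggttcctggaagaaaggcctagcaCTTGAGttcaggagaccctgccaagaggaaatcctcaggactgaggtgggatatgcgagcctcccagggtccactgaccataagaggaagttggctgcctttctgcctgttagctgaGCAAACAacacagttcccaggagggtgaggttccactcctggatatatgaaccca
The match nearer the start, beginning 55 bases before it, is the FOXA core TGTTTNC read on the opposite strand, and the match beginning 172 bases before the start is the NKX2-1 core CTCAAG, also on the opposite strand. They do not overlap. A FOXA core on either strand was present in 17.8% and an NKX2-1 core in 13.3% of the 32851 windows of this length in the table. The C/EBP core TTGCNNAA and the AP-1 letters TGANTCA were not found in this window, while 9.6% and 6.7% of all windows held them.

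Start and stop are those of the knockout table, which uses mm10, and chromosome, strand and gene identifier those of the GENCODE annotation. Scgb1a1 lies on chromosome 19 from 9083642 to 9087957 on the minus strand (ENSMUSG00000024653.2). Scgb3a1 lies on chromosome 11 from 49663595 to 49665119 on the plus strand (ENSMUSG00000064057.12). Scgb3a2 lies on chromosome 18 from 43764301 to 43767400 on the plus strand (ENSMUSG00000038791.14). Each stop lies 1 base past the end that RefSeq gives. No other gene of the GENCODE annotation overlaps any of the 3. None of their stretches of 31 bases (446 in Scgb1a1, 598 in Scgb3a1 and 907 in Scgb3a2) occurs in a GENCODE transcript of another gene. Near matches and sequence outside annotated transcripts were not searched.

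The knockout libraries held 15625264 to 37609774 counts each. Gprc5a had 4 to 238 counts in the knockout libraries and 2115 to 8186 in the wild-type ones, and the 238 belong to t2 mouse 339, which also had the fewest genes above 0 (14475). Haemoglobin genes took 22.8% of the counts in t0 mouse 357, 25.5% in t4 mouse 371 and 15.3% in t6 mouse 349, and the ribosomal precursor Rn45s took 14.8% in t6 mouse 365. Results of the edgeR tests on the secretoglobins that change when these 5 libraries are left out are named below. The ratios between secretoglobins were not tested without these 5 libraries as a set. Levels are read counts scaled by TMM to a common library size, in the usual unit CPM, a scaling that takes most genes as equal between libraries. Each library is a separate mouse.

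Scgb1a1 fell by far more than the spread between mice at the end of the exposure. At baseline it ranged from 25478 to 44194 CPM with a median of 29791. At t0 it ranged from 241 to 1282 CPM with a median of 672. The highest t0 library, mouse 359, was still far under the lowest baseline library. The mean was 700.1 ± 389.6 CPM at t0 against 32299 ± 6963 at baseline (SD, n = 6 each), which is 2.17% of the baseline mean. At t2 the 5 libraries gave 10085, 15328, 19695, 23122 and 26677 CPM. The 6 libraries of t4 ranged from 10901 to 31615 CPM with a median of 18809.5. The t6 libraries gave 7393, 13267, 18194, 22066 and 29897 CPM. All 16 later libraries lay above all t0 libraries, while 4 of 5 at t2, 5 of 6 at t4 and 4 of 5 at t6 lay below every baseline library. The order of the means was baseline, t4, t2, t6 and t0, and the ranges of the 3 later times overlap.

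Scgb3a1 also fell at t0 and stood at 29.8%, 31.2% and 38.8% of its baseline mean at t2, t4 and t6. It ranged from 7423 to 18305 CPM at baseline, with a median of 11101, and from 274 to 766 CPM at t0, with a median of 478. Its mean fell from 12062 ± 4536 to 512 ± 198 CPM (SD, n = 6 each), or 4.25% of the baseline mean. The t2 libraries gave 2044, 2593, 3562, 3920.5 and 5845 CPM, and the t6 libraries 3303, 4425, 4788, 5394 and 5498 CPM. At t4 the range was 1788 to 6692 CPM with a median of 3786. No library after the start of the exposure reached the lowest baseline library at any of the 4 times. The means stood in the order baseline, t6, t4, t2 and t0.

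Scgb3a2 had the smallest fold change of the 3 at t0 and stood at 26.7%, 35.7% and 41.3% of its baseline mean at t2, t4 and t6. It ranged from 6048 to 14936 CPM at baseline, with a median of 7597, and from 270.5 to 1570 CPM at t0, with a median of 816. The mean was 8883 ± 3307 CPM at baseline and 817 ± 490.5 CPM at t0 (SD, n = 6 each), or 9.20% of the baseline mean. The t2 libraries gave 1674, 2368, 2479, 2537 and 2806 CPM and lay closer together than those of the other groups. At t4 the range was 1592 to 3708 CPM with a median of 3505, the lowest value being that of mouse 340. The t6 libraries gave 2429, 2456, 3609, 4190.2 and 5639 CPM, and mouse 368, the lowest in Scgb1a1, was the highest here. No library after baseline reached the lowest baseline value, and the order of the means was baseline, t6, t4, t2 and t0.

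**Figure D1:**
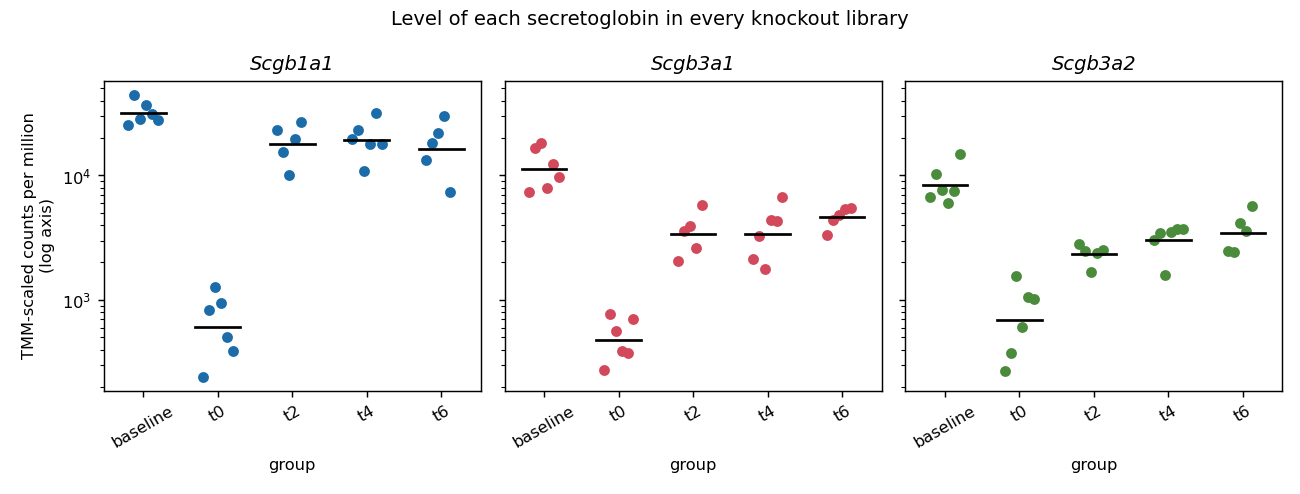
Level of Scgb1a1, Scgb3a1 and Scgb3a2 in TMM-scaled CPM (log axis) in each of the 28 knockout libraries by group, where a point is 1 mouse and a bar the geometric mean. All t0 points lie below all others in each panel, and the later Scgb3a1 and Scgb3a2 points all lie below the baseline points.

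At the end of the exposure all 3 genes fell. By edgeR's quasi-likelihood test with Benjamini-Hochberg adjustment over all genes tested, the log2 fold change at t0 against baseline was -5.53 for Scgb1a1 (SE 0.41, adjusted p = 1.1e-10), -4.56 for Scgb3a1 (SE 0.36, adjusted p = 2.9e-10) and -3.44 for Scgb3a2 (SE 0.35, adjusted p = 2.1e-08). These were 46.1-fold, 23.5-fold and 10.9-fold falls. Counted from the steepest fall among 14847 genes, Scgb1a1 stood at place 3, Scgb3a1 at place 12 and Scgb3a2 at place 54. In the same comparison 22.3% of all genes were called lower and 23.3% higher, and the median gene moved by 0.02. In brushings of mixed cells, fewer club cells and less of these transcripts per club cell cannot be told apart. Together the 3 genes took 5.05% ± 0.963 of all counts at baseline and 0.220% ± 0.107 at t0 (SD, n = 6 each).

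Scgb3a1 and Scgb3a2 were still lower than baseline at every later time, and the fall of Scgb1a1 did not pass the test at any of them. For Scgb3a1 the log2 fold change by edgeR was -1.75 at t2 (adjusted p = 0.00087) and -1.68 at t4 (adjusted p = 0.00057), and -1.37 was left at t6 (adjusted p = 0.0089). For Scgb3a2 the same test gave -1.90 at t2 (adjusted p = 0.00063), then -1.49 (t4, adjusted p = 0.0023) and -1.28 (t6, adjusted p = 0.018). Their means at t6 were 38.8% and 41.3% of the baseline means. Scgb1a1 stood at 58.8% of baseline at t2 (95% interval 36.2% to 95.4%, edgeR adjusted p = 0.13). Its t4 mean was 62.6% of baseline (39.6% to 98.9%, edgeR adjusted p = 0.16) and its t6 mean 56.2% (34.6% to 91.4%, edgeR adjusted p = 0.15). Every later library lay below the baseline mean. These are normal intervals from the SE, and the t4 interval excludes the baseline level although the unadjusted edgeR p there was 0.055. Of all genes, 8.73% were called lower and 11.2% higher at t2. For t4 the shares were 9.56% and 10%, and for t6 they were 4.29% and 4.53%. Of the genes called at t6, 51.4% were higher, and without the 5 libraries that stand apart 67.2% were.

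The limits of these calls lie at Scgb1a1 and at t6. Fitted on the 2 groups compared alone, Scgb1a1 was called lower at t2 (log2 fold change -0.76, edgeR adjusted p = 0.042) and at t4 (-0.67, adjusted p = 0.035). Without the 5 libraries that stand apart, which leaves 3 mice at t6, neither Scgb3a1 (-1.32, adjusted p = 0.073) nor Scgb3a2 (-1.15, adjusted p = 0.1) passed at t6, and Scgb3a2 at t6 also missed without baseline mouse 356 (-1.07, adjusted p = 0.061), t6 mouse 341 (-1.16, adjusted p = 0.056) or t6 mouse 349 (-1.16, adjusted p = 0.061), and with library totals in place of TMM (-1.20, adjusted p = 0.054).

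**Figure D2:**
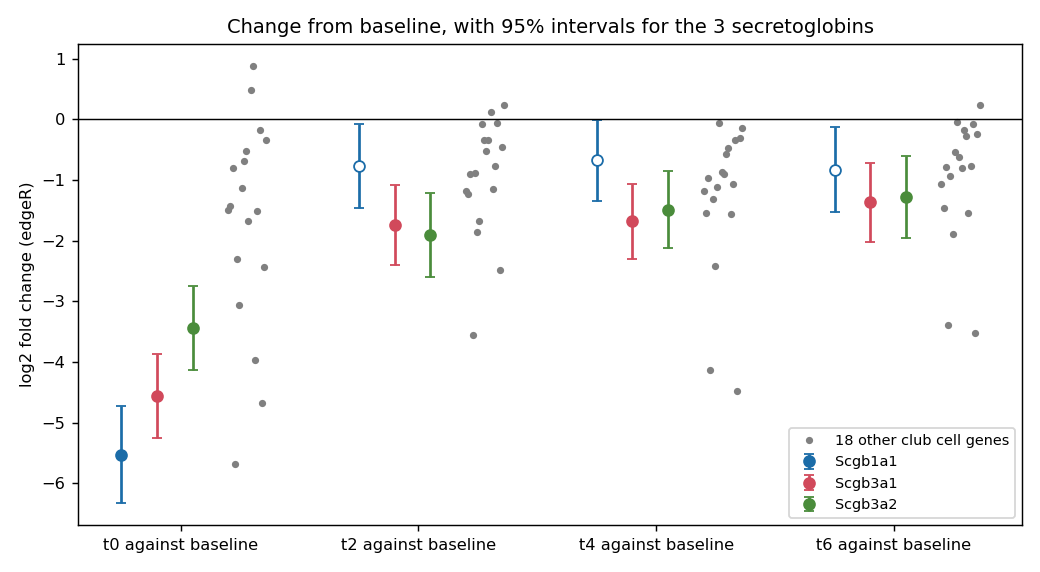
Log2 fold change against baseline at t0, t2, t4 and t6 for the 3 secretoglobins with 95% intervals (filled where the edgeR adjusted p is under 0.05) and, as grey points, for 18 other club cell genes. Scgb1a1 has the lowest of the 3 values at t0 (-5.53) and the highest at each later time (-0.77, -0.68 and -0.83).

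Measured from the low point at t0, all 3 genes had risen by t2 and were still higher at t4 and t6. On the log2 scale the rises of Scgb1a1 at the 3 later times were 4.76, 4.85 and 4.70. The rises of Scgb3a1 were 2.81, 2.88 and 3.19, and those of Scgb3a2 were 1.54, 1.96 and 2.17. The largest edgeR adjusted p of the 9 was 0.00089, for Scgb3a2 at t2. Of all genes 15.7%, 15.9% and 18.2% were called higher than t0 in the same order of times. These 3 comparisons share the t0 libraries. At t2 only 3 genes of 14847 had a larger rise than Scgb1a1, which stood at place 4 from the top, against place 65 for Scgb3a1 and place 802 for Scgb3a2.

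Between the later times no secretoglobin was called. From t2 to t6 Scgb3a2 differed by 0.63 on the log2 scale (95% interval -0.06 to 1.32, edgeR adjusted p = 0.29) and Scgb3a1 by 0.38 (-0.28 to 1.04, adjusted p = 0.53), and for Scgb1a1 the value was -0.06 (-0.78 to 0.66, adjusted p = 0.94). These intervals do not show that the levels were alike. Among all genes the share called in either direction was 0% for t4 against t2, 5.64% for t6 against t2 and 0.869% for t6 against t4. For t4 against t2 edgeR called 0 genes, 2034 had an unadjusted p under 0.05, DESeq2 called 155 and limma voom with quality weights 245. Over the 5 groups together all 3 genes passed edgeR's F test (adjusted p = 2.4e-09, 3.6e-09 and 1.9e-07 for Scgb1a1, Scgb3a1 and Scgb3a2), as did 56.8% of all genes.

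Ratios of the counts of 2 secretoglobins within a library do not depend on scaling. Scgb1a1 lost more than Scgb3a2 by t0, and at t2 and t4 its ratio to Scgb3a2 was above that of baseline. At baseline a library held 3.75 counts of Scgb1a1 for each count of Scgb3a2 (geometric mean, range 1.87 to 6.06). At t0 the ratio was 0.879 (0.381 to 2.22), with more counts of Scgb3a2 than of Scgb1a1 in 4 of 6 libraries. It was 7.69 at t2 (6.03 to 10.5), then 6.29 (t4, 4.82 to 8.53) and 4.71 (t6, 1.31 to 8.28). The mean log2 ratio differed from baseline by -2.09 at t0, by 1.03 at t2 and by 0.75 at t4 (adjusted p = 0.043 for each, two-sided exact permutation test over libraries, adjusted over 12 tests). At t6 it differed by 0.33 (exact test, adjusted p = 0.65), and mouse 368 alone had a t6 ratio under 5.

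The ratio of Scgb1a1 to Scgb3a1 moved the same way at t0 and not past the test later. It was 2.79 at baseline (1.55 to 4.63), 1.26 at t0 (0.555 to 2.42), 5.34 at t2 (2.57 to 11.3), 5.63 in the t4 libraries (2.66 to 9.11) and 3.55 in those of t6 (1.34 to 5.54). The difference in mean log2 ratio was -1.15 at t0 (exact permutation test, adjusted p = 0.045). The later differences were 0.94, 1.01 and 0.35 (exact test, adjusted p = 0.12, 0.052 and 0.57). The ratio of Scgb3a1 to Scgb3a2 passed at no time, with a difference of -0.95 at t0 (adjusted p = 0.12, exact test). Leaving out 1 library in turn raised the adjusted p of these 4 calls to between 0.052 and 0.078 in 10 of 12 runs for Scgb1a1 over Scgb3a1 at t0, and for Scgb1a1 over Scgb3a2 in 5 of 12 at t0, 9 of 11 at t2 and 9 of 12 at t4, while the 4 differences stayed between -1.34 and -0.91, -2.36 and -1.85, 0.83 and 1.17, and 0.55 and 0.88. With 5 libraries in a group the smallest exact p is 0.0043, against 0.0022 with 6 in both.

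**Figure D3:**
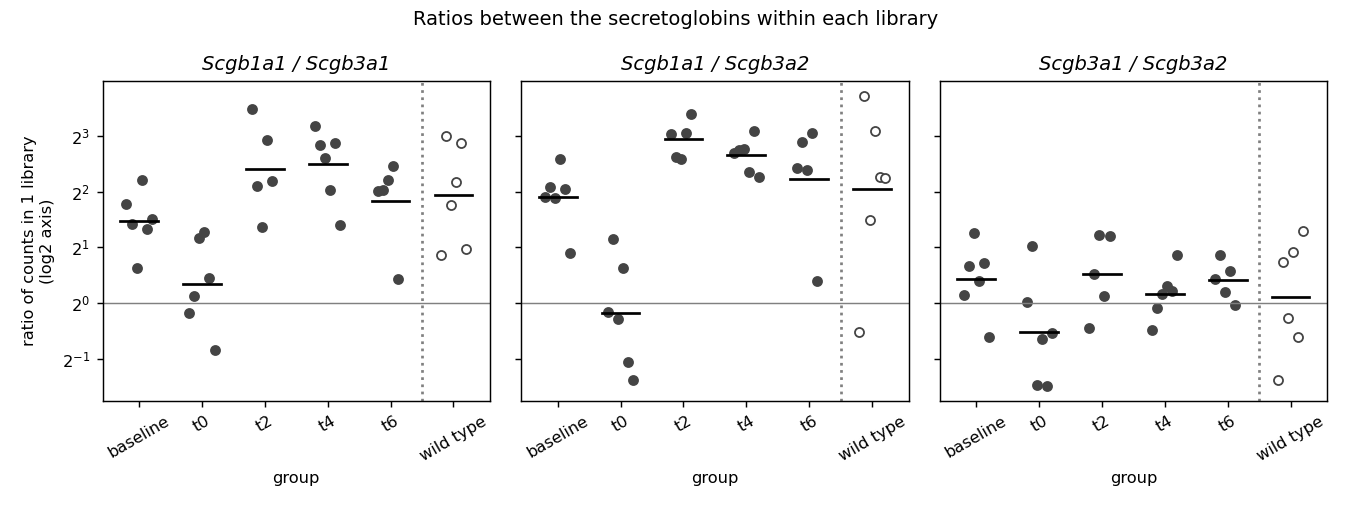
Ratio of the counts of 2 secretoglobins in each library (log2 axis) by group, with the wild-type libraries as open circles right of the dotted line; a point is 1 mouse and a bar the geometric mean. The middle panel shows Scgb1a1 over Scgb3a2 from 0.381 to 2.22 at t0 and from 6.03 to 10.5 at t2.

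Per length of transcript, taken from the effective lengths in the wild-type files, Scgb1a1 made up most of the 3 at all groups except t0. Its share of the per-length level of the 3 genes was 63.3% ± 7.31 at baseline (SD, n = 6) and 36.7% ± 11.3 at t0 (n = 6). After the exposure the share was 76.8% ± 7.07 (t2, n = 5), 76.2% ± 6.42 (t4, n = 6) and 68.2% ± 14.5 (t6, n = 5). Scgb3a2 went from 14.6% ± 5.33 at baseline to 35.4% ± 12.5 at t0 and 8.41% ± 1.42 at t2. Scgb3a1 held 22.1% ± 6.33, 27.9% ± 9.57 and 14.8% ± 6.68 at the same times.

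The other genes of club cells fell with the secretoglobins at t0, most of them by less. Of 18 such genes 14 were called lower and 2 higher at t0, with a median log2 fold change of -1.46, against 22.3% called lower among all genes. The 3 with the smallest p were Hp, haptoglobin (-3.97, SE 0.36, edgeR adjusted p = 3.6e-09), Sec14l3 (-2.43, SE 0.25, adjusted p = 2.3e-08) and Cckar, the cholecystokinin A receptor (-5.68, SE 0.58, adjusted p = 3e-08). Cckar, Retnla (-4.67) and Hp were the 3 whose fall was larger than that of Scgb3a2, and of these Cckar alone exceeded Scgb1a1. Cckar ranged from 128 to 227 CPM at baseline and from 0.683 to 11.6 CPM at t0. Cyp4b1, a cytochrome P450, changed by -1.67 (edgeR adjusted p = 4.5e-08), and Cyp2f2, the P450 most used as a club cell marker, by -0.53 (adjusted p = 0.036), a call lost with library totals in place of TMM (-0.36, adjusted p = 0.11) and without any 1 of baseline mice 343, 344, 352 and 356 and t0 mice 359 and 375 (-0.53 to -0.44, adjusted p 0.052 to 0.089). Cyp2f2 ranged from 18890 to 29550 CPM at baseline and from 12590 to 22060 CPM at t0, so the groups overlap, while Scgb1a1 in the same libraries fell to about 2.17% of its mean.

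The 2 genes that went against the rest were Gsto1, a glutathione transferase (0.88, edgeR adjusted p = 6.4e-05), and Gabrp, a GABA receptor subunit (0.49, adjusted p = 0.0079), and at t4 both were lower than baseline (-0.47 and -0.57). At t2, t4 and t6 the counts called lower were 8, 14 and 8 of 18, with none higher and medians of -0.82, -1.02 and -0.77. Of all genes 8.73%, 9.56% and 4.29% were called lower and 11.2%, 10% and 4.53% higher at these times. Cckar stayed lowest among those called, apart from Retnla at t4 and t6, with -3.56, -4.13 and -3.38. The aldehyde dehydrogenase genes Aldh1a1 (-1.18, -1.18 and -1.06) and Aldh1a7 (-1.22, -1.55 and -1.45) were called lower at all 3 later times; the 2 are close paralogs, so the split of reads between them is uncertain.

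Of 15 transcription factors known in club cells, 3 were called lower and 1 higher at t0, shares near or below the 22.3% and 23.3% of all genes. Foxa2, a forkhead factor of airway epithelium, changed by -2.03 (SE 0.28, edgeR adjusted p = 2.4e-06), from 37.4 ± 5.54 CPM at baseline to 9.16 ± 3.28 at t0 (SD, n = 6 each), and no t0 library reached a baseline one. Spdef, which drives secretory and mucous differentiation, changed by -0.87 (adjusted p = 0.0026) and Grhl2 by -0.41 (adjusted p = 0.028). Elf3 rose by 0.96 (adjusted p = 1.5e-05, all by edgeR). Nkx2-1 had 97.8 ± 17.0 CPM at baseline and 98.7 ± 13.3 at t0 (SD, n = 6 each), a log2 difference of 0.01 (edgeR adjusted p = 0.95). Foxa2 was called at none of the later times against baseline, while Elf3 and Etv5 were higher at t2 (0.83 and 1.67) and t4 (0.70 and 1.20), and Nfia lower at t2 (-0.75).

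Genes for proteins that bind secretoglobins moved at t0 as well. Of 6 on the list 5 could be tested, and 4 were called higher and 1 lower, against 23.3% and 22.3% of all genes. Marco, the macrophage scavenger receptor that binds Scgb3a2, ranged from 0 to 2.52 CPM at baseline and from 7.05 to 79.97 CPM at t0 (log2 fold change 5.16, SE 0.95, edgeR adjusted p = 8.1e-05). Fpr2, a formyl peptide receptor of myeloid cells, rose by 3.87 (adjusted p = 0.00044, edgeR). Lrp2, a large endocytic receptor, fell by 2.67 (adjusted p = 0.0026, edgeR) at a low level of 2.56 ± 1.24 CPM at baseline (SD, n = 6). Of these 5 genes 1 (Lrp2, lower) was called at t2, where 8.73% of all genes were called lower and 11.2% higher. None was called at t4 (9.56% and 10% of all genes) or at t6 (4.29% and 4.53%).

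Of 13 genes for other secreted products of the airway surface 7 were called lower at t0 and 1 higher, against 22.3% and 23.3% of all genes. Bpifa1, an abundant secreted lipid-binding defence protein, ranged from 79210 to 156600 CPM at baseline and from 8599 to 14900 CPM at t0 (log2 fold change -3.34, SE 0.34, edgeR adjusted p = 2e-08). Pigr, which carries immunoglobulin A into the lumen, changed by -1.87 (adjusted p = 1.3e-08) and Slpi, a protease inhibitor, by 2.98 (adjusted p = 0.00063), both by edgeR. Bpifa1 was not called at any later time (-0.71, -0.73 and -0.63). Pigr (-0.997, -1.298 and -1.11) and Reg3g (-1.13, -1.14 and -1.365) were lower at all 3, and Ltf, lactoferrin, higher (1.16, 0.89 and 0.97). Bpifb1 and Chil4 were lower at t4 and t6. Of the 13 genes 2, 4 and 4 were called lower at t2, t4 and t6, against 8.73%, 9.56% and 4.29% of all genes. At each of these times 1 was called higher, against 11.2%, 10% and 4.53%.

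Set against other RNA of the same library, the secretoglobins fell more at t0 than the geometric mean of the other club cell genes. Single genes of that list still fell further, Cckar, Retnla and Hp more than Scgb3a2, and Cckar more than Scgb1a1. Per the geometric mean of the 18 club cell genes, Scgb1a1 differed from baseline by -4.07 on the log2 scale, Scgb3a1 by -2.92 and Scgb3a2 by -1.98, with no overlap between groups (adjusted p = 0.0058 for each, two-sided exact permutation test, adjusted over 24 tests). At t2 only Scgb3a2 passed (-0.99, exact test, adjusted p = 0.0074), and the later values for Scgb1a1 were 0.05, 0.46 and -0.05 (exact test, adjusted p = 0.85, 0.066 and 0.85). With the list's median in place of its geometric mean, Scgb3a1 was lower at t2, t4 and t6 (-1.31, -0.97 and -0.83, exact test, adjusted p = 0.023, 0.025 and 0.047) and Scgb3a2 also at t4 and t6 (-0.70 and -0.81, exact test, adjusted p = 0.023 and 0.049). Single libraries decided 3 further values: without t2 mouse 360 Scgb3a1 at t2 passed (-1.06, exact test, adjusted p = 0.013), without t4 mouse 340 Scgb1a1 was higher at t4 (0.57, exact test, adjusted p = 0.031), and without t6 mouse 368 Scgb3a2 was lower at t6 (-0.62, exact test, adjusted p = 0.027).

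Per 10 general epithelial genes, such as Epcam and Cdh1, all 3 secretoglobins were lower than baseline at all 4 times. For Scgb1a1 the differences in the order of the times were -6.25, -1.22, -1.14 and -0.999, for Scgb3a1 -5.10, -2.16, -2.15 and -1.35, and for Scgb3a2 -4.15, -2.25, -1.89 and -1.33. The largest adjusted p of the 12 was 0.013 (exact test). Of the 10 epithelial genes 5 were called higher and 1 lower at t0, against 23.3% and 22.3% of all genes. At t2, t4 and t6 the counts called higher were 3, 4 and none, against 11.2%, 10% and 4.53% of all genes. Elf3 is on both this list and that of the transcription factors.

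**Figure D4:**
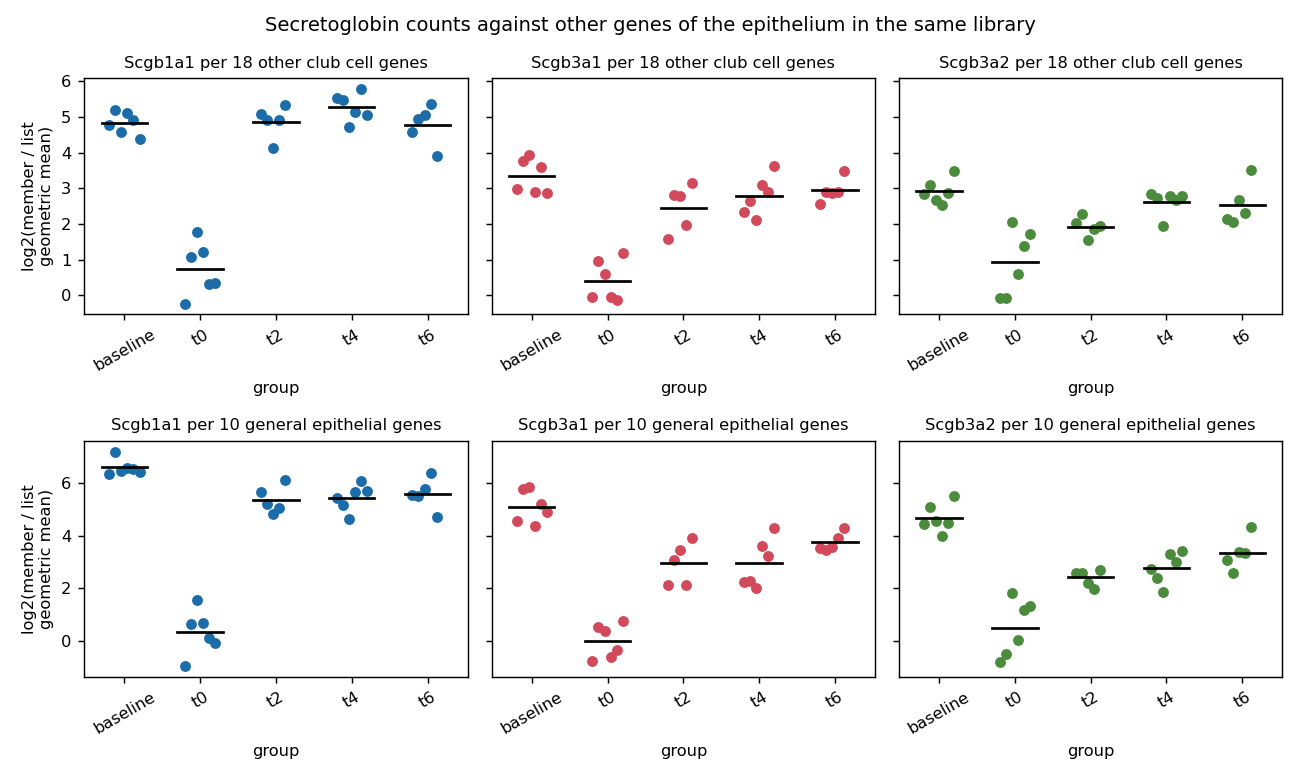
Log2 of each secretoglobin's count over the geometric mean of 18 other club cell genes (upper row) or 10 general epithelial genes (lower row) in each knockout library by group; a point is 1 mouse and a bar the mean. The t0 points lie below all baseline points in all 6 panels, and the later Scgb1a1 points in the upper row overlap those of baseline.

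Markers of other cells moved at t0 beside the secretoglobins. All 10 ciliated cell genes were lower (median -2.20), 8 of 10 basal cell genes higher (median 1.79), 6 of 8 squamous genes higher (median 4.33) and all 9 macrophage genes tested higher (median 2.48), against 22.3% of all genes lower and 23.3% higher. The summed level of the basal genes ranged from 1171 to 2855 CPM at baseline and from 5253 to 9778 at t0, that of the squamous genes from 82.1 to 303.5 and from 1755 to 4751, and that of the macrophage genes from 83.6 to 174 and from 444.5 to 1432. The ciliated sum ranged from 2516 to 3421 CPM at baseline and from 435 to 1687 at t0, and lay between 1801 and 4264 at the later times. Of 6 genes of alveolar type 2 cells, which share Nkx2-1 and surfactant genes with club cells, 4 were lower and 1 higher at t0. At the later times no ciliated gene was called lower, against 8.73%, 9.56% and 4.29% of all genes at t2, t4 and t6. With 10 genes, shares this low cannot set the list apart from all genes. Foxj1 alone of the 10 was called higher, at t4 (0.79, edgeR adjusted p = 0.029), where 10% of all genes were. At t2, t4 and t6, where 11.2%, 10% and 4.53% of all genes were called higher, the squamous genes called higher were 6, 5 and 5 of 8, the basal genes 4, 2 and 1 of 10, and the macrophage genes 2, 4 and 1 of 9. Krt14, a basal cell keratin, was higher at all 3 times (3.84, 3.53 and 3.42), Krt17 at t2 and t4 (2.25 and 1.74), and the macrophage genes Cd68 (1.12 and 1.41) and Mrc1 (2.05 and 2.35) at t2 and t4. Of the 10 basal genes 1, 2 and 1 were called lower at t2, t4 and t6, against 8.73%, 9.56% and 4.29% of all genes. They were Pdpn at t2 and t4 and Trp63 at t4 and t6. Of the skeletal muscle genes 7 of 8 at t0 and all 8 later were called higher. Their sum ranged from 1.02 to 8.66 CPM at baseline and from 1.605 to 188.4 at t0, so these groups overlap. At t6 it ranged widely, from 13.25 to 1603 CPM. With baseline levels this low, the filter of 1 CPM in 5 libraries favoured muscle genes that were higher after exposure. Of 7 red blood cell genes only Hba-a1 was called higher at t0 and at t4, a share under that of all genes at t0. Its t0 value was -0.27 without t0 mouse 357, and its t4 call was lost without t4 mouse 371. At baseline Krtdap of the squamous list and Pvalb of the muscle list were at 0 in all 6 libraries, so Pvalb passed the filter through exposed libraries alone. The part of these shifts in the levels of the secretoglobins was not tested.

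Genes with the most similar course were found by the root mean square difference over the 28 libraries. It was taken between log2(CPM + 1) values set to 0 at each gene's baseline mean. Only the 9846 genes with a baseline mean of at least 10 CPM were compared, so genes low at baseline could not appear. Nearest to Scgb1a1 were Tbata (1.02), Hp (1.15), Bpifa1 (1.25), Atp6v1b1, a proton pump subunit (1.27), and Tacr1, the substance P receptor (1.27). By the same measure Scgb3a1 lay at 1.05 and Scgb3a2 at 1.299 from Scgb1a1, and these 2 at 0.754 from each other. Nearest to Scgb3a1 were AU021092 (0.61), Tacr1 (0.63), Unc79 (0.69), Tbata (0.75) and Hp (0.79), and nearest to Scgb3a2 were AU021092 (0.55), Unc79 (0.58), the fatty acid receptor Cd36 (0.61), the monocarboxylate transporter Slc5a8 (0.62) and Dpp6 (0.64). AU021092, which heads both lists, had log2 fold changes of -3.98, -1.94, -1.99 and -1.96 at t0, t2, t4 and t6. With a pseudocount of 0.1, 3 of 5, 3 of 5 and 4 of 5 of these neighbours stayed in the lists.

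The table held 22 other secretoglobin genes, and only Scgb2b15 and Scgb2b17 passed the count filter. These 2 have the same counts in every library and cannot be told apart. They had at most 6 counts in any baseline library, 5 of 6 being at 0. The t4 libraries held 2 to 189 counts and the t6 libraries 0 to 256. No baseline library went above 0.29 CPM, so the filter of 1 CPM in 5 libraries was passed through exposed libraries alone. Selection of these 2 genes thus favoured a level above baseline. By edgeR they were called higher at t4 (log2 fold change 5.48, SE 1.63, adjusted p = 0.019) and t6 (6.14, SE 1.67, adjusted p = 0.02), calls that limma on log2(CPM + 1) did not make (adjusted p = 0.13 and 0.058), nor limma voom with quality weights (adjusted p = 0.093 and 0.087). The fitted values depend on the prior count, since baseline is at or near 0. Scgb1b27, Scgb2b26 and Scgb2b27 had 22030, 6234 and 12272 counts in t0 mouse 375 and 2319, 686 and 938 in t2 mouse 347, and at most 48 in any other library. Scgb1a1 had 9489 counts in t0 mouse 375.

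In the wild-type mice, whose files were made with other tools, Scgb1a1 was again the most abundant of the 3 per length. As CPM of library totals, without TMM, Scgb1a1 had 34440 ± 17328 in wild type and 30583 ± 6261 in knockout baseline, Scgb3a1 8077 ± 2736 and 11486 ± 4459, and Scgb3a2 7720 ± 3427 and 8442 ± 3166 (SD, n = 6 each). On the TPM scale, which accounts for length, the wild-type means were 94314 ± 47322 for Scgb1a1, 20697 ± 5846 for Scgb3a1 and 18280 ± 9386 for Scgb3a2 (SD, n = 6), and Scgb1a1 ranked 1 to 6 among all genes of a library. Scgb1a1 ranged from 25179 to 148070 TPM. The lowest, mouse 289, was the 1 wild-type library with more Scgb3a2 than Scgb1a1 (30151 TPM, count ratio of Scgb1a1 to Scgb3a2 0.699), where the other 5 reached up to 13.3. Per length Scgb1a1 held 66.4% ± 17.1 of the 3 in wild type (SD, n = 6) and 63.3% ± 7.31 in knockout baseline. No test was made between the genotypes, since the tables were normalized separately.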

How the data were processed

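Poly-A RNA of RIN 7 or more was sequenced on an Ion Proton from 28 knockout and 6 wild-type tracheal brushings, per the labels. For the knockout mice the deposited table is named for RPKM, yet what it holds are estimated counts: of all nonzero entries 76.3% lay within 0.01 of a whole number. Its 36 largest values, Scgb1a1 in baseline mouse 344 among them, are rounded to 3 digits. The submitters' processing notes name mm10, STAR 2.4.1d, Bowtie2 2.1.0 and Partek for this table. For the wild-type mice the deposited files give expected counts, TPM and FPKM from RSEM 1.3.1 after STAR 2.7.0f on GRCm38, per the submitters' processing notes, with transcript lengths per the file headers.

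The knockout counts were rounded, genes with at least 1 CPM in 5 libraries were kept, and all 28 libraries were fitted with edgeR 4.0.16 (TMM, robust quasi-likelihood, 1 mean per group, Benjamini-Hochberg over 14847 genes, threshold 0.05) under R 4.3.3. Intervals of 95% are normal intervals from the SE. Ratios between members (0.5 added to counts) and members per gene list (1 added) were compared with two-sided exact permutation tests in scipy 1.17.1. Alternatives used DESeq2 1.42.0, limma 3.58.1, other scalings and filters, and libraries left out. Promoter letters and gene positions come from RefSeq and GENCODE tables. The members and gene lists were chosen with earlier results of these data known, so their counts are descriptions. The rule named every secretoglobin past the filter, the 5 genes nearest in course to each member and, from each list, the 2 or 3 with the smallest p at t0 and any that moved against the rest; other genes named were chosen after their values were seen. Adgre1 and Cubn gave no test. Of the 10 squamous genes 8 were tested, Krtdap not among them, and the summed squamous level covers all 10. Replicates are separate mice and no pairing exists.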

Additional observations from a re-analysis of the deposited data

Results flagged for a closer look

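Within groups, 30 sets of 5 or 6 libraries (the 3 members and 3 ratios in each knockout group) were checked for a library far from the rest, a rule that flags about 1 set in 20 by chance, and 3 stood apart. Scgb3a2 in t4 mouse 340 was 1590 CPM, below the other 5 libraries of that group. In t6 mouse 368 the ratio of Scgb1a1 to Scgb3a1 was 1.34 and that of Scgb1a1 to Scgb3a2 was 1.31, both far below the other 4 t6 libraries; this mouse had the lowest Scgb1a1 and the highest Scgb3a1 and Scgb3a2 of its group.

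The difference from baseline at t0 was unlike that at the later times for all 3 genes, by a direct edgeR test of each pair of times. The log2 differences from t0 were 4.76, 4.85 and 4.70 for Scgb1a1 at t2, t4 and t6, 2.81, 2.88 and 3.19 for Scgb3a1, and 1.54, 1.96 and 2.17 for Scgb3a2.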

How the results depend on the processing

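In 168 of 168 alternatives of scaling, filter, tool and samples, other than leaving out 1 library, the members kept direction and call in the comparisons that involve t0, and in 121 of 126 they did so at the later times against baseline. The exceptions were Scgb3a2 at t6 with library totals (-1.20) and without the 5 libraries that stand apart (-1.15), Scgb3a1 at t6 without those 5 (-1.32), and Scgb1a1 at t2 and t4 in a fit of the 2 groups alone (-0.76 and -0.67, both then called). Leaving out 1 library moved Scgb3a2 at t6 between -1.49 and -1.07. Between later times, where no member was called, the sign changed for Scgb1a1 from t2 to t4 with library totals (-0.003), voom (-0.097) and without the 5 libraries (-0.12), for Scgb3a1 there with library totals (-0.0099), and for Scgb1a1 with voom from t2 to t6 (0.011) and from t4 to t6 (0.11). Leaving out 1 library gave -0.083 to 0.24 for Scgb1a1 and -0.18 to 0.31 for Scgb3a1 from t2 to t4, and -0.32 to 0.14 and -0.41 to 0.047 for Scgb1a1 from t2 and t4 to t6. The cause was not tested.

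Among ratios, leaving out 1 library gave -1.34 to -0.91 (t0) and 0.84 to 1.23 (t4) for Scgb1a1 over Scgb3a1, -2.36 to -1.85 (t0), 0.83 to 1.17 (t2) and 0.55 to 0.88 (t4) for Scgb1a1 over Scgb3a2, and -1.25 to -0.75 (t0), -0.11 to 0.34 (t2) and -0.23 to 0.14 (t6) for Scgb3a1 over Scgb3a2, which passed without t0 mouse 357 (-1.25, exact permutation test, adjusted p = 0.039). Fewer libraries raise the smallest p an exact test can give. Per other club cell gene with the list's median, Scgb1a1 at t2 was -0.37, Scgb3a1 at t2, t4 and t6 was -1.31, -0.97 and -0.83, and Scgb3a2 at t4 and t6 was -0.70 and -0.81. Per those genes without 1 library, Scgb1a1 was -0.065 to 0.23 (t2), 0.36 to 0.57 (t4) and -0.20 to 0.17 (t6), Scgb3a1 -1.06 to -0.67 (t2) and Scgb3a2 -0.62 to -0.25 (t6).

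Counts of called genes moved by over 1.5 times as follows. Against baseline, t4 had 5380 with voom (2908 by edgeR), and t6 had 832 with library totals and 3783 with voom (1310). From t2 to t4 there were 155 with DESeq2, 245 with voom and 0 to 31 without 1 library (0). From t2 to t6 there were 1338 with DESeq2, 46 from the 2 groups alone and 350 to 1056 without 1 library (838). From t4 to t6 there were 56 with library totals, 430 with DESeq2, 71 and 49 with limma at pseudocounts of 1 and 0.1, 16 with no filter, 0 from the 2 groups alone, 316 with voom, 272 without the 5 libraries and 0 to 267 without 1 library (129). With library totals the share of calls that were higher went from 51.1% to 69.3% at t0, 56.1% to 80.3% at t2, 51.2% to 71.2% at t4 and 51.4% to 72% at t6, and the median gene stood at 0.19 at t0 and 0.12 at t2. Without the 5 libraries the share went from 51.4% to 67.2% for t6 against baseline, from 31.6% to 50.1% for t6 against t2 and from 33.3% to 53.7% for t6 against t4. The haemoglobin gene Hba-a1 at t0 was -0.28 without the 5 libraries and -0.27 to 4.55 without 1 library. No paired analysis was possible because each library is a separate mouse and no number is shared between groups.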
